A study of Mus musculus with 11 samples.

Results

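Effector CD4 T cells (Teff) were compared with naive CD4 T cells for chromatin accessibility, with 3 Teff and 2 naive libraries out of the 11 ATAC-seq libraries of the study. ATAC-seq inserts sequencing adapters with the Tn5 transposase where DNA is accessible, so the reads collected at a site, a peak, measure how open it is. All cells were freshly isolated, untreated polyclonal CD4 T cells from mixed spleen and lymph node of wild-type C57BL/6 mice carrying a Foxp3-GFP reporter. Naive cells were sorted as CD44low. Teff cells were sorted as CD44high, FOXP3-negative, CD73low and FR4low. The remaining antigen-experienced groups, used here only beside the Teff values, were anergic cells (CD44high, FOXP3-negative, CD73high, FR4high, NRP1+; n = 3) and regulatory T cells (Treg, FOXP3+ CD25+; n = 3). Whether the replicates are different mice is not given in the labels, and the p-values therefore reflect only how far these libraries lie from each other, which may be technical. The Teff gate is defined by surface phenotype alone, so it can hold several kinds of effector and memory cells at once, and a bulk library cannot tell a site that is open in more of the cells from a site that is more open in each cell.

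A naive CD4 T cell recirculates through lymphoid organs with the help of CCR7 and S1PR1, is kept alive by IL-7, and is held in quiescence by factors such as LEF1, TCF-1, KLF2, FOXP1 and BACH2. After antigen, the T cell receptor activates NFAT, NF-kB and AP-1, and the cell can take on a helper fate: Th1 (T-bet, interferon gamma), Th2 (GATA3, IL-4, IL-13), Th17 (ROR factors, IL-17) or follicular helper (BCL6, CXCR5, IL-21). Cytokine genes are closed in naive cells and are opened at promoters and at distant enhancers as these fates form. CD44 rises with antigen experience, which is why it separates the groups of this comparison.

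The DNA of 6 peaks, each the peak of its gene with the smallest adjusted p, is shown as examples of sites called higher or lower. Each line gives the central bases of a peak, 100 to either side of its centre, from the GRCm38/mm10 RefSeq assembly, forward strand, 5′ to 3′. The first lies at Tbx21, a gene of the Th1 fate, and has no capitals.
Tbx21 (chr11:97104001-97104201): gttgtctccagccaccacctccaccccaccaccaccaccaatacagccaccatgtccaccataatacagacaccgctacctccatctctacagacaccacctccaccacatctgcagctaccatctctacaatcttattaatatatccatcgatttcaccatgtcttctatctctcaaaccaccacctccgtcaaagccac
The next 4 peaks were also higher in Teff. At Cxcr3 the capitals mark the T-box letters TCACACCT, read on both strands, and the RUNX letters TGTGGTT. At Egr2 they mark the AP-1 letters TGANTCA (N is any base) and the NFAT letters TGGAAAA, and at Fyn the AP-1 letters alone, and at Runx2 the AP-1 letters and the letters ATCAAAG, which TCF-1 and LEF1 bind. Other searched letters in these windows are left in lower case.
Cxcr3 (chrX:101737346-101737546): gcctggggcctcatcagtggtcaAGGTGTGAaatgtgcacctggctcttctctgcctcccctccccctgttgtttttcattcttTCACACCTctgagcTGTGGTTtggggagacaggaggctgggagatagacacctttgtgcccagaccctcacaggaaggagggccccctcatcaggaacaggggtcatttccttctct
Egr2 (chr10:67483466-67483666): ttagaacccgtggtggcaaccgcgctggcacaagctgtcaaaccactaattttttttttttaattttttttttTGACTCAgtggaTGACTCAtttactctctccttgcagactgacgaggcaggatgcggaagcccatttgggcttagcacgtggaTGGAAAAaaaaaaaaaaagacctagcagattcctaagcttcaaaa
Fyn (chr10:39479403-39479603): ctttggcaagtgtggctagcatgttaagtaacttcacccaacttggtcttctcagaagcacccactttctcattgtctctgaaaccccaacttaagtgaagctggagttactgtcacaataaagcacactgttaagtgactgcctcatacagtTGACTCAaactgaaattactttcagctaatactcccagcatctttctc
Runx2 (chr17:44713473-44713673): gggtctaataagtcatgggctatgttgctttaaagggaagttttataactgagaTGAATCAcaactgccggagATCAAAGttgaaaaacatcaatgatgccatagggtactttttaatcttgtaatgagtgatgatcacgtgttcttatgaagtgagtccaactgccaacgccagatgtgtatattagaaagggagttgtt
The last was lower in Teff, and its capitals mark the reverse complement of the same ATCAAAG letters.
Lef1 (chr3:131199938-131200138): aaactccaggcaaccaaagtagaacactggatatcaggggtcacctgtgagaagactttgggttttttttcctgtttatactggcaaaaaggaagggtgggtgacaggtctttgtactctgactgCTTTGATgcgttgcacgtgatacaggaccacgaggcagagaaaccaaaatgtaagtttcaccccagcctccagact
The Cxcr3 window held 2 T-box matches and the Egr2 window 2 AP-1 matches. A match is a run of letters and not a measured binding site. How often such letters occur in all higher and lower peaks is given further on.

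The deposited table holds 38509 peaks, of which 38493 were tested. A value is the deposited signal: the number of reads in the peak times a factor for the library. Recovered reads in peaks came to 45.7 and 48.1 M in the naive libraries and to 50.9, 44.3 and 20.9 M in Teff replicates 1, 2 and 3. Across peaks, which are not independent replicates, r was 0.981 between the naive libraries, 0.975 to 0.986 among the Teff libraries and 0.872 to 0.879 between the groups. A peak was called where the adjusted p (limma-trend on log2 of the signal plus 1, Benjamini-Hochberg over all tested peaks) was under 0.05. The leading peak of a gene is its peak with the smallest adjusted p, which need not be its brightest or most changed peak. Fold changes are on that log2(signal + 1) scale, Teff over naive, with standard errors.

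Chromatin differed between Teff and naive cells at a large share of peaks, and more peaks were higher in Teff than lower. Of the 38493 tested peaks 15423 were called (40.1%), with 8744 higher (22.7%) and 6679 lower (17.4%) in Teff. The rises were also the larger changes: 5923 peaks were higher by 2-fold or more and 2782 by 4-fold or more, against 3085 and 655 lower. The median over all tested peaks was -0.03. Only 2 of the 11 libraries behind the consensus peaks are naive, so sites open only in naive cells may be under-represented. The part of this in the number and size of the rises was not tested. Teff and naive libraries did not overlap at 15261 of the called peaks (98.9%), against 63.7% of all tested peaks. Both naive libraries were at 3 reads or fewer at 229 peaks, and 212 of these were called higher. The median Teff signal at the 212 was 25. No peak was at 3 reads or fewer in every Teff library. The 229 peaks passed the filter on low values through other groups, so their direction is largely set by that choice and supports nothing. Of the fits leaving out 1 library, the 2 without a naive library had the fewest lower peaks, the fewest without naive replicate 1. The lone naive library left is assumed there to vary like the other groups. The part of the smaller group in this drop was not tested.

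**Figure D1:**
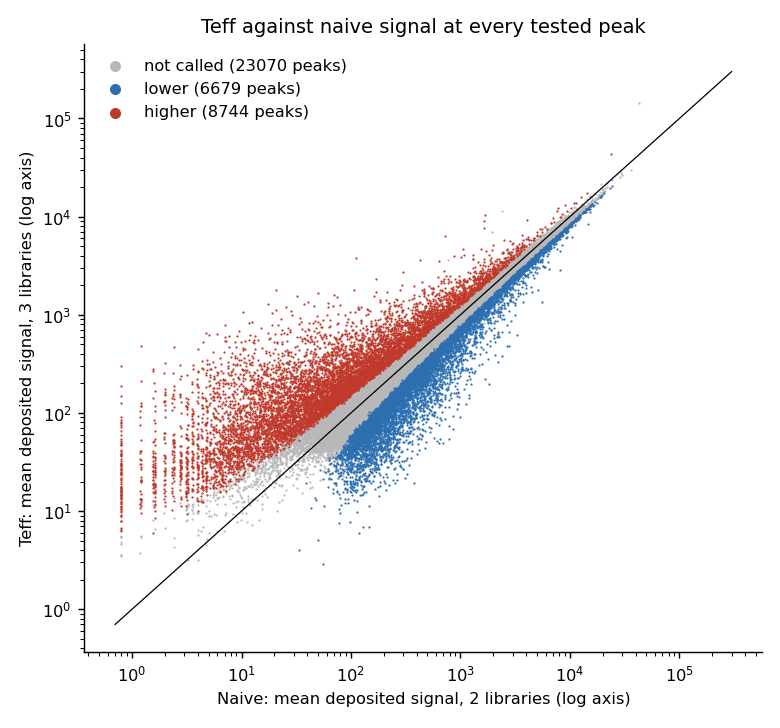
Mean deposited signal in the 2 naive libraries (x axis, log) and the 3 Teff libraries (y axis, log), 1 point per tested peak, red for the 8744 peaks higher in Teff, blue for the 6679 lower and grey for those not called. The black line marks equal signal, and the red points reach much further from it at low naive signal than the blue points do at low Teff signal.

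The sort markers followed the gates where the gates separate these groups. Cd44, the gene of the hyaluronan receptor used in the sort, had 10 of 16 peaks higher in Teff and 1 lower. Its leading peak, 55.4 kb upstream of the start site (chromosome 2, 102956557 to 102957478, intergenic), had signals of 38.2 and 60.4 in the naive libraries and 553, 441 and 462 in the Teff libraries (log2 fold change 3.3 ± 0.18, adjusted p = 7.36e-12). All Teff libraries were far above both naive libraries there. Cd4, which all these cells express, had no called peak among 4, and its promoter peak stood at 243 and 258 in naive and 192, 168 and 273 in Teff (adjusted p = 0.368). The defining T cell genes Cd3e, Cd3d and Cd3g had 13 peaks in all, of which 4 were lower in Teff, and the Cd3e promoter stood at 1430 and 1210 in naive and 1360, 1250 and 1060 in Teff (adjusted p = 0.563). The gene of CD73, Nt5e, was higher at 4 of 5 peaks and that of FR4, Izumo1r, at 3 of 7 (2 lower), although Teff cells were sorted as low for both proteins. At the promoter of Nt5e the naive libraries held 447 and 429 and the Teff libraries 860, 967 and 967 (1.09 ± 0.14, adjusted p = 1.34e-06), below the anergic mean of 1410 ± 132 (SD, n = 3).

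Foxp3, the defining factor of Treg cells, has 1 peak, an intronic site 3.57 kb inside the gene. Its signal was 15.4 and 7.74 in naive and 15.9, 14.0 and 63.3 in Teff replicates 1, 2 and 3 (1.08 ± 0.45, adjusted p = 0.0625), against 1330 ± 244 (SD, n = 3) in Treg. Teff replicate 3 therefore stood above the remaining 4 libraries at this site and far below any Treg library. The part of Treg cells in that library in the results below was not tested. Without it, 8059 peaks were higher and 5749 lower.

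**Figure D2:**
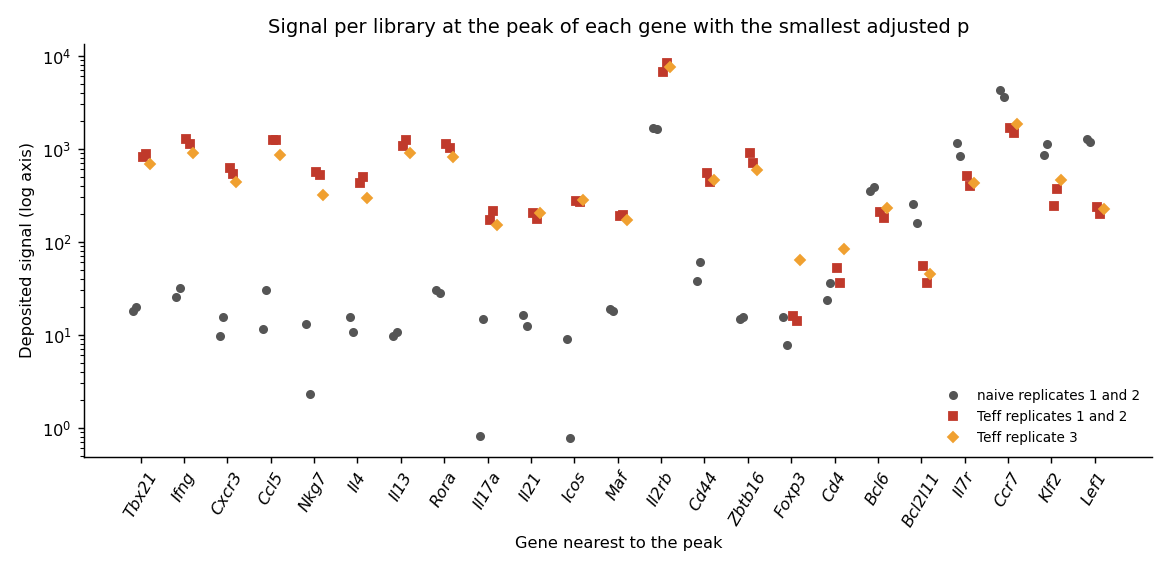
Deposited signal (y axis, log) in each naive library (grey circles), Teff replicates 1 and 2 (red squares) and Teff replicate 3 (orange diamonds) at the peak with the smallest adjusted p of 23 genes. Helper cytokine and receptor genes on the left sit between 0.774 and 60.4 in naive libraries apart from Il2rb, and Ccr7, Klf2 and Lef1 on the right are higher in naive.

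Genes that keep naive cells circulating and alive had more lower than higher peaks in Teff. Of 142 peaks nearest to 14 genes of naive recirculation and survival receptors, 66 were lower (46.5%) and 19 higher (13.4%), with a median of -0.52 against -0.03 over all peaks. Ccr7, the chemokine receptor for lymph node entry, was lower at 10 of 18 peaks and higher at 1. The wide peak at its promoter (chromosome 11, 99153812 to 99155617) stood at 4300 and 3630 in naive and at 1650, 1480 and 1840 in Teff (-1.26 ± 0.13, adjusted p = 5.65e-08). The groups did not overlap there.

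S1pr1, the receptor that lets T cells leave lymphoid organs, was lower at 11 of 23 peaks and higher at 3, and Il7r, the IL-7 receptor alpha chain, at 5 of 12 with none higher. For S1pr1 the leading peak was 32.3 kb downstream and fell from 3240 and 2330 in naive to 1290, 1000 and 967 in Teff (-1.35 ± 0.18, adjusted p = 2.88e-06). The Il7r promoter itself was not called (395 and 284 in naive, 328, 329 and 268 in Teff, adjusted p = 0.642), and its lower peaks were distal. Igfbp4 was lower at 5 of 6 peaks, Dapl1 at 7 of 11 and Treml2 at 3 of 3. Members of the same list that went the other way were Tnfrsf1b, a TNF receptor, with 6 of 9 peaks higher, and Itgb7, an integrin chain for gut homing, with 2 of 5 higher. Il6ra also did, with 3 of 12 higher and 1 lower. Il6st was lower at 10 of 25 and higher at 4, but its leading peak rose, from 91.8 and 68.9 to 648, 545 and 633 (2.92 ± 0.16, adjusted p = 4.99e-12). Tnfrsf1b had the list's smallest adjusted p (3.37e-12), at a peak in an intron of its neighbour Tnfrsf8, where naive libraries held 19.5 and 13.9 and Teff libraries 453, 368 and 397.

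Transcription factors and other genes of the naive and quiescent state made up the list with the largest share of lower peaks in the comparison: 185 of 372 peaks were lower (49.7%) and 30 higher (8.06%), with a median of -0.65. Lef1, which maintains naive identity together with TCF-1, was lower at 40 of 49 peaks spread over 277 kb and higher at none. At an intronic peak 43.7 kb into Lef1 (chromosome 3, 131199502 to 131200574) naive libraries had 1280 and 1180 and Teff libraries 235, 199 and 225 (-2.48 ± 0.19, adjusted p = 1.16e-09). Its promoter peak was also lower, from 799 and 865 to 285, 377 and 488 (-1.15 ± 0.19, adjusted p = 4.31e-05). Summed over all Lef1 peaks the signal was 29900 and 27600 in naive and 14900, 13900 and 14000 in Teff, so the whole locus lay lower in every Teff library.

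Satb1, a chromatin organizer of T cells, was lower at 16 of 21 peaks and higher at none, and Klf2, which drives S1pr1, was lower at 8 of 16. Actn1, a list member that is not a transcription factor, was lower at 7 of 7. For Klf2 the leading peak, 23.2 kb upstream, stood at 856 and 1110 in naive and 244, 366 and 462 in Teff (-1.49 ± 0.22, adjusted p = 1.17e-05). Tcf7, which encodes TCF-1, was lower at 8 of 27 peaks and higher at 2. Its leading peak, 31.2 kb upstream (chromosome 11, start 52313514), was among the brightest of the named sites and fell from 7000 and 6000 in naive to 3280, 3090 and 2360 in Teff (-1.17 ± 0.13, adjusted p = 3.94e-07). The Tcf7 promoter was not called (2680 and 3240 against 2050, 2250 and 3010, adjusted p = 0.102), and Teff replicate 3 overlapped the naive libraries there.

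Several of these loci held peaks of both directions. Foxp1, a repressor that enforces quiescence, was lower at 36 of 56 peaks and higher at 6, and Bach2, a repressor of effector differentiation, lower at 33 of 51 and higher at 4. At Bach2 the lower peaks ranged from -3.43 to -0.53, while the peak with its smallest adjusted p, far upstream (chromosome 4, start 32217583), went up, from 25.2 and 61.2 in naive to 310, 243 and 273 in Teff (2.77 ± 0.26, adjusted p = 1.86e-08). Ets1, an ETS factor of resting lymphocytes, was split more evenly, with 9 of 49 peaks higher and 7 lower. An Ets1 intronic peak 16.2 kb from a start site rose from 110 and 84.4 to 534, 642 and 625 (2.62 ± 0.16, adjusted p = 2.11e-11) and was higher still in anergic cells, with a mean of 2100. The plot of 6 loci by distance shows these patterns peak by peak.

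**Figure D3:**
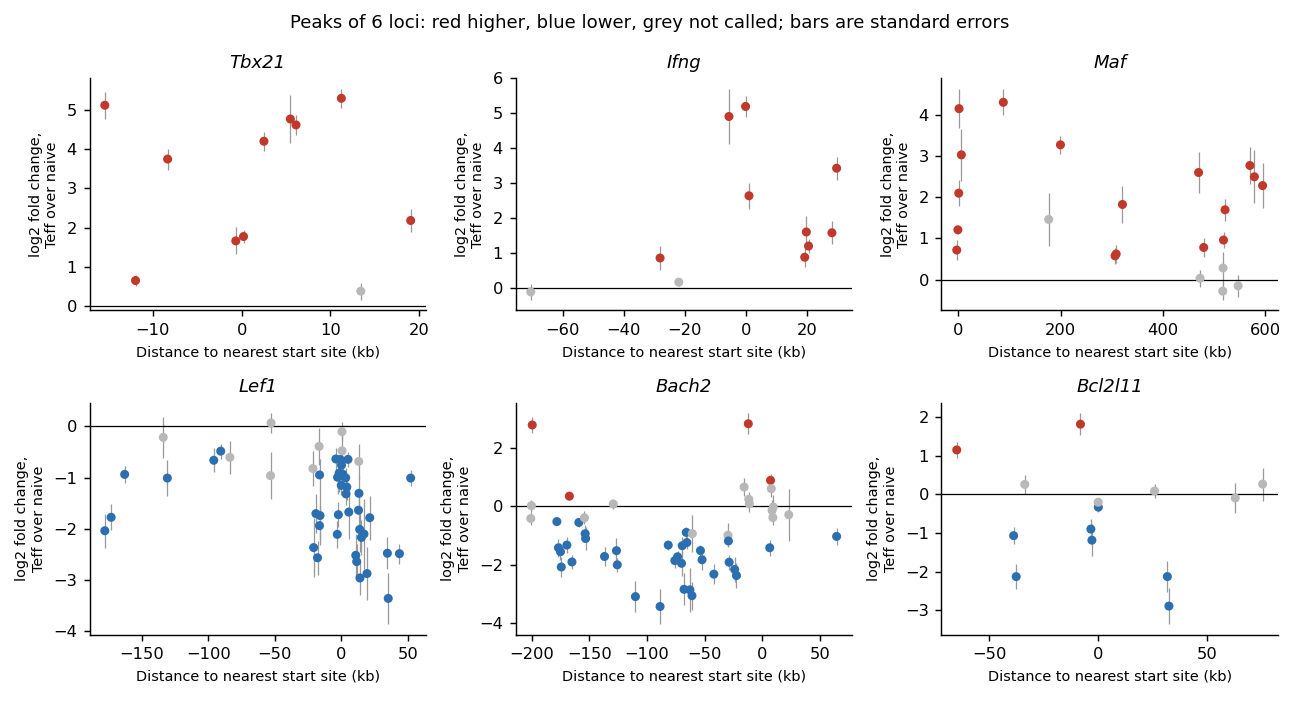
Log2 fold change, Teff over naive (y axis), with its standard error at each peak nearest to 6 genes, by distance from the peak centre to the nearest start site (x axis, kb); red peaks are higher, blue lower and grey not called. Tbx21, Ifng and Maf have only red and grey peaks, Lef1 only blue and grey, and Bach2 and Bcl2l11 both red and blue.

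Genes of shared effector differentiation were open in the opposite pattern to the quiescence factors. Of 162 peaks nearest to 15 genes, 85 were higher (52.5%) and 14 lower (8.64%), with a median of 0.6. Maf, a factor of IL-10, IL-4 and follicular helper programmes, was higher at 17 of 22 peaks over 598 kb and lower at none. The Maf promoter stood at 1960 in both naive libraries and at 4410, 4670 and 4500 in Teff (1.21 ± 0.1, adjusted p = 1.44e-09). Its peak with the smallest adjusted p, 199923 bases downstream, went from 18.7 and 17.8 to 187, 195 and 173 (3.27 ± 0.22, adjusted p = 1.47e-10), and the Teff libraries were tightly grouped at both sites.

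Bhlhe40, a factor required for effector cytokine production, has 1 peak, a wide one centred 0.644 kb upstream of its start, with 1520 and 1790 in naive and 9300, 9780 and 7780 in Teff (2.43 ± 0.11, adjusted p = 3.96e-13). Runx2 was higher at 11 of 13 peaks, with the other 2 lower, and Runx3, a T cell lineage factor, at 9 of 21. The Runx2 peak whose sequence is given above had 2.44 and 3.87 in naive and 109, 125 and 98.3 in Teff (4.76 ± 0.28, adjusted p = 1.96e-11). Hif1a, the oxygen-sensing factor, was higher at 10 of 15 and Rbpj, the nuclear partner of Notch, at 7 of 9, with none lower at either. Prdm1, which encodes the effector repressor BLIMP-1, had few called peaks: 2 of 9 were higher and 1 lower, and its promoter was not called (1160 and 1090 against 1250, 1210 and 1060, adjusted p = 0.784). Irf4 was split, with 4 of 18 peaks higher and 4 lower.

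Th1 genes had far more higher than lower peaks: 53 of 96 peaks were higher (55.2%) and 5 lower (5.21%), with a median of 0.76, and 13 of 17 genes had higher peaks and no lower one. Tbx21, which encodes the Th1 factor T-bet, was higher at 10 of 11 peaks. At the intronic peak 11.2 kb into Tbx21 (chromosome 11, 97103704 to 97104499) the naive libraries had 17.9 and 20.1 and the Teff libraries 819, 870 and 675 (5.3 ± 0.24, adjusted p = 3.5e-13). The promoter peak of Tbx21 changed less, from 240 and 309 to 881, 972 and 943 (1.77 ± 0.16, adjusted p = 1.19e-08), and had more naive signal than the intronic peak.

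Ifng, the gene of interferon gamma, was higher at 9 of 11 peaks. Its promoter peak, centred 42 bases upstream of the start (chromosome 10, 118440610 to 118441398), had 25.2 and 31.7 in naive and 1260, 1110 and 887 in Teff (5.2 ± 0.31, adjusted p = 2.17e-11). Cxcr3, the Th1 chemokine receptor, was higher at 3 of 3 peaks, and at the one 3.3 kb upstream the signal went from 9.75 and 15.5 to 623, 536 and 437 (5.31 ± 0.28, adjusted p = 2.79e-12). Stat4, which carries the IL-12 signal, was higher at 9 of 10 peaks, at the leading one from 45.5 and 51.9 to 1080, 1010 and 807 (4.27 ± 0.2, adjusted p = 5.27e-13). Teff replicate 3 was the lowest Teff library at the leading peaks of Tbx21, Ifng, Cxcr3 and Stat4, and it lay far above both naive libraries at each of them.

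The receptor genes Il12rb2 and Il18r1, through which IL-12 and IL-18 act, changed less, with 2 of 6 and 2 of 5 peaks higher. The Il12rb2 promoter went from 129 and 108 to 461, 430 and 325 (1.76 ± 0.27, adjusted p = 2.01e-05), and that of Il18r1 was not called (351 and 230 against 332, 310 and 253, adjusted p = 0.846). Eomes, the T-box factor related to T-bet, went the other way: both of its peaks were lower, the one in its coding sequence 957 bases from the start from 270 and 367 to 118, 146 and 150 (-1.19 ± 0.23, adjusted p = 0.000236). Eomes was chosen for mention after its values were seen, as a list member against the direction of the list.

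Cytotoxic and chemokine genes were higher at 31 of 60 peaks (51.7%) and lower at 10 (16.7%), the share of lower peaks being close to that of all peaks. Ccl5, a chemokine of memory and effector cells, was higher at 3 of 3 peaks. The one 4.51 kb upstream had 11.4 and 30.2 in naive and 1250, 1240 and 847 in Teff (5.8 ± 0.32, adjusted p = 8.05e-12), and the promoter 13 and 15.5 against 356, 344 and 350 (4.53 ± 0.29, adjusted p = 4.6e-11). Nkg7, a protein of cytotoxic granules, showed the largest promoter change of all promoter peaks that met the rule for largest changes, from 13 and 2.32 to 563, 522 and 315 (6.05 ± 0.46, adjusted p = 8.77e-10). Gzmb, the gene of granzyme B, was mixed, with 2 of 5 peaks higher and 2 lower, and its start site peak rose from 26.0 and 8.52 to 197, 186 and 215 (3.64 ± 0.44, adjusted p = 8.98e-07).

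Prf1, the gene of perforin, had all 6 of its peaks lower in Teff. The peak centred 138 bases upstream of the Prf1 start had 489 and 447 in naive and 255, 266 and 203 in Teff (-0.96 ± 0.29, adjusted p = 0.00996). The largest difference was 39012 bases downstream, where the naive libraries had 304 and 293 and the Teff libraries 19.4, 24.8 and 36.7 (-3.47 ± 0.63, adjusted p = 0.000137). Signal summed over the 6 peaks was 1770 and 1890 in naive and 711, 766 and 683 in Teff. The start sites of Prf1 and Gzmb, whose products act together in killing, thus changed in opposite directions.

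Th2 genes were higher at 35 of 62 peaks (56.5%) and lower at 8 (12.9%), with a median of 0.81. In the Th2 cytokine cluster all 4 Il4 peaks and all 7 Il13 peaks were higher in Teff, whereas Il5 had 1 of 2 peaks lower and none higher. At the Il13 peak with the smallest adjusted p, in intergenic DNA, naive libraries had 9.75 and 10.8 and Teff libraries 1060, 1230 and 905 (6.55 ± 0.27, adjusted p = 1.45e-13). This peak was also higher in Teff than in anergic cells, with a mean of 149 ± 25.1 (SD, n = 3; 2.83 ± 0.24, adjusted p = 1.56e-08). The Il4 promoter had 3.25 and 3.87 in naive, a few reads in each library, and 180, 239 and 200 in Teff (5.5 ± 0.42, adjusted p = 9.23e-10). Summed over its 7 peaks, Il13 signal was 154 and 135 in naive and 3170, 3740 and 2790 in Teff.

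Gata3, which is needed for all CD4 T cell development as well as for Th2 cells, was higher at 8 of 13 peaks and lower at 1. Its promoter was already bright in naive cells and differed little, with 2090 and 2100 against 2750, 2650 and 2880 (0.4 ± 0.11, adjusted p = 0.00666), whereas a peak 76.9 kb downstream went from 122 and 99.1 to 638, 654 and 433 (2.35 ± 0.26, adjusted p = 1.87e-07). The promoter call was lost in 1 of 13 other settings of the analysis. Il10, an anti-inflammatory cytokine made by several helper fates, was higher at 12 of 13 peaks, at the leading one from 11.4 and 6.97 to 362, 273 and 288 (4.95 ± 0.21, adjusted p = 2e-13). Il4ra, the receptor chain for IL-4 and IL-13, was lower at 4 of 7 peaks and higher at none, from 1320 and 1230 to 346, 375 and 360 at an intronic peak (-1.82 ± 0.16, adjusted p = 5.72e-09).

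Among Th17 genes 27 of 55 peaks were higher (49.1%) and 6 lower (10.9%), and 6 of 15 genes of the list had no peak, among them Il17f and Il23r. Rora, a related receptor shared by Th17 and innate-like cells, was higher at 9 of 12 peaks. Its intronic peak 14.9 kb in (chromosome 9, 69304287 to 69305128) had 30.1 and 27.9 in naive and 1130, 1020 and 818 in Teff (5.04 ± 0.18, adjusted p = 1.78e-14). Both Il17a peaks were higher, the leading one from 0.812 and 14.7 to 172, 212 and 152 (5.06 ± 0.55, adjusted p = 1.97e-07). There naive replicate 1 stood at its smallest value, taken as 1 read. Ahr, the aryl hydrocarbon receptor, was higher at 4 of 4 peaks, and Ccr6, the Th17 chemokine receptor, at 2 of 2. Genes of Th1, Th2 and Th17 fates were thus open in the same bulk libraries, and which cells carry which site cannot be told from them.

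The marker list of CD8, NK and innate-like T cells had more higher than lower peaks, mostly through 1 locus. It was higher at 18 of 37 peaks (48.6%, against 22.7% of all peaks) and lower at 2. Of the 18, 12 belong to Zbtb16, the gene of PLZF, a factor of innate-like T cells, and 4 to Klrb1c. Tyrobp had 1 of 6 peaks higher, Fcer1g had none called, and Cd8b1 was lower at its only peak. The list also holds Mr1, with 1 of 4 higher, and Cd1d1, lower at its only peak. These encode molecules that present antigen to innate-like T cells and do not mark those cells. At a Zbtb16 intronic peak 40.7 kb in (chromosome 9, start 48795006) the naive libraries had 14.6 and 15.5 and the Teff libraries 895, 695 and 590 (5.48 ± 0.34, adjusted p = 3.06e-11). Its promoter went from 14.6 and 31.7 to 1030, 961 and 733 (5.31 ± 0.33, adjusted p = 3.63e-11). Teff replicate 1 was the highest and replicate 3 the lowest Teff library at both. Klrb1c, which encodes NK1.1, was higher at 4 of 11 peaks, from 196 and 227 to 1080, 1020 and 813 at the leading one (2.18 ± 0.19, adjusted p = 5.26e-09).

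The defining markers Cd8a, Ncr1, Klra1, Klra7, Klre1, Sh2d1b1, Trgc1 and Sox13 have no peak in the table. Signal summed over the list's 37 peaks was 29000 and 28000 in naive and 33300, 31300 and 29200 in Teff. The promoter of Cd8b1, the CD8 beta chain, was lower in Teff, with 1120 and 1150 against 179, 190 and 227 (-2.51 ± 0.25, adjusted p = 4.19e-08). The part of innate-like T cells in the Th1, Th2, Th17 and cytotoxic results was not tested.

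Follicular helper genes were higher at 63 of 130 peaks (48.5%) and lower at 7 (5.38%), with a median of 0.67. Bcl6, the factor that defines this fate, was not part of that: 1 of its 9 peaks was higher and 1 lower, and its promoter was not called (2510 and 3140 against 2550, 2350 and 2540, adjusted p = 0.283). Icos, a costimulatory receptor, was higher at 15 of 21 peaks, while its promoter was not called (713 and 600 against 650, 604 and 542, adjusted p = 0.524). The leading Icos peak, 76.7 kb downstream, had 8.94 and 0.774 in naive and 275, 268 and 280 in Teff (6.03 ± 0.48, adjusted p = 1.78e-09). Il21, the main cytokine of these cells, was higher at 4 of 7 peaks, its promoter going from 16.2 and 51.9 to 116, 182 and 152 (2.3 ± 0.4, adjusted p = 8.17e-05). Pdcd1, which encodes PD-1, was higher at 3 of 8 and Cxcr5, the follicle homing receptor, at 5 of 9 with 1 lower. At the leading peaks of Pdcd1 and Cxcr5 the anergic means, 238 and 407, lay above every Teff library.

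Costimulatory receptors and TNF family genes were higher at 71 of 156 peaks (45.5%) and lower at 11 (7.05%). Tnfsf8, the ligand of CD30, was higher at 11 of 21, at its leading peak from 18.7 and 12.4 to 292, 260 and 283 (4.1 ± 0.17, adjusted p = 1.79e-13). Cd28, the main costimulatory receptor, was higher at 13 of 23 and lower at 2, and Tnfrsf9, which encodes 4-1BB, higher at 5 of 9. Cd2, an adhesion receptor, ran against the list with 6 of 20 peaks lower and none higher. Inhibitory receptors were higher at 48 of 92 peaks (52.2%) and lower at 5 (5.43%). Ctla4 was higher at 14 of 21 and lower at 1, with 89.4 and 115 in naive and 866, 826 and 838 in Teff at a peak 11.5 kb downstream (3.05 ± 0.17, adjusted p = 5.82e-12). The Ctla4 promoter was not called against naive (750 and 612 against 830, 715 and 815, adjusted p = 0.228), while Teff lay below anergic cells (mean 2180, adjusted p = 9.56e-09) and Treg cells (mean 1880, adjusted p = 1e-07). Tigit was higher at 10 of 11 peaks.

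Genes of the factors activated by the T cell receptor had many more higher than lower peaks. AP-1 family genes had 34 of 64 peaks higher (53.1%) and 2 lower (3.12%). Fosb, a FOS family member, was higher at 7 of 7, at the leading one from 51.2 and 46.5 to 541, 809 and 590 (3.68 ± 0.22, adjusted p = 2.62e-11). Batf, the AP-1 factor named in the title of the study, was higher at 6 of 10 peaks. Its leading peak, an intronic peak 17.0 kb in (chromosome 12, start 85703524), had 57.7 and 49.6 in naive and 269, 342 and 283 in Teff (2.45 ± 0.24, adjusted p = 4.61e-08), while the promoter was not called (1200 and 944 against 1410, 974 and 1010, adjusted p = 0.77). At the Batf intronic peak no difference was called between Teff and anergic cells (-0.41 ± 0.22, adjusted p = 0.16) or between Teff and Treg cells (-0.04 ± 0.22, adjusted p = 0.904). Genes of NF-kB, NFAT, NR4A and EGR factors were higher at 62 of 143 peaks (43.4%) and lower at 7 (4.9%), led by Nfatc1 with 14 of 17 higher and 2 lower, and Nfkb1 with 10 of 20 higher. At Egr2, which restrains activated T cells, 4 of 8 peaks were higher, the leading one from 3.25 and 7.74 to 93.5, 113 and 86.7 (4.01 ± 0.4, adjusted p = 4.83e-08).

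Cytokine receptors of the common gamma chain and IL-1 families went both ways, with 20 of 82 peaks higher (24.4%) and 19 lower (23.2%), shares close to or above those of all peaks. Il2rb, the IL-2 and IL-15 receptor beta chain, was higher at 5 of 5 peaks, and its promoter was one of the brightest changed promoters, with 1650 and 1610 in naive and 6730, 8370 and 7610 in Teff (2.21 ± 0.11, adjusted p = 8.89e-13). Il2ra, the alpha chain CD25, was higher at 2 of 13 and lower at 4, and its promoter was not called (389 and 310 against 482, 422 and 368, adjusted p = 0.213). Il18rap, the second IL-18 receptor chain, has 1 peak, which went from 0.812 and 6.97 to 199, 164 and 225 (5.69 ± 0.61, adjusted p = 1.61e-07). STAT and SOCS genes were higher at 32 of 93 peaks (34.4%) and lower at 15 (16.1%). Cish, a feedback inhibitor of cytokine signals, was higher at 7 of 8, and Stat5b lower at 7 of 19 and higher at 2.

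Homing and adhesion genes were higher at 61 of 130 peaks (46.9%) and lower at 20 (15.4%). The smallest adjusted p of all named peaks was at Itgb1, the integrin beta 1 chain, which was higher at 12 of 13 peaks. Its leading peak, 136 kb upstream in intergenic DNA (chromosome 8, 128549640 to 128550524), had 13.8 and 10.1 in naive and 663, 670 and 533 in Teff (5.6 ± 0.18, adjusted p = 4.26e-15). Teff lay below anergic cells there (mean 1490, -1.26 ± 0.16, adjusted p = 2.7e-06). No difference from Treg cells was called (mean 570, adjusted p = 0.604). Gcnt1, an enzyme that makes selectin ligands, was higher at 4 of 4, and Itgav at 7 of 8. Cxcr6, a receptor of tissue-resident cells, was higher at 2 of 3, its promoter going from 232 and 195 to 560, 512 and 425 (1.22 ± 0.23, adjusted p = 0.000212). S1pr4, a sphingosine phosphate receptor, had a bright peak 8.13 kb upstream, in an intron of Gna15, that rose from 474 and 372 to 3750, 3820 and 3260 (3.1 ± 0.15, adjusted p = 6.07e-13). Cxcr4 was split, with 7 of 23 higher and 10 lower, and Selplg, the P-selectin ligand, had 2 of 12 higher and 4 lower.

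The BCL2 family sets the balance between survival and death, and the title of the study names BIM, the pro-death protein encoded by Bcl2l11. The family's 66 peaks were split, with 17 higher (25.8%) and 18 lower (27.3%) and a median of -0.07. Bcl2l11 itself was lower at 7 of 14 peaks and higher at 2. Its leading peak, 37.7 kb upstream in an intron of Acoxl (chromosome 2, start 128088174), had 253 and 157 in naive and 55.4, 36.3 and 45.0 in Teff (-2.13 ± 0.32, adjusted p = 1.59e-05). The promoter of Bcl2l11 differed slightly, with 3040 and 3340 against 2490, 2770 and 2350 (-0.33 ± 0.12, adjusted p = 0.0282). Bcl2, its main antagonist, was lower at 3 of 5 peaks and higher at none, and its promoter stood at 3620 and 3640 against 3140, 3050 and 2580 (-0.32 ± 0.11, adjusted p = 0.0282). Both promoter calls were lost in 4 of 13 other settings. Pmaip1, which encodes the pro-death protein NOXA, was higher at 7 of 8 peaks, from 26.0 and 27.9 to 98.3, 135 and 123 at the leading one (2.09 ± 0.26, adjusted p = 1.11e-06).

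T cell receptor signalling genes were higher at 72 of 255 peaks (28.2%) and lower at 52 (20.4%), shares near those of all peaks, but single loci were one-sided. Fyn, a SRC family kinase, was higher at 19 of 24 and lower at none, from 78.8 and 82.8 to 476, 466 and 533 at the peak printed above (2.59 ± 0.17, adjusted p = 9.03e-11). Ptpn22, a phosphatase that damps the receptor, was higher at 7 of 11 with none lower, and Csk, which inhibits SRC kinases, at 6 of 13 with none lower. Cd247, the zeta chain, was lower at 12 of 24 and higher at 3, and Prkcq, protein kinase C theta, lower at 11 of 28 and higher at 2. Glycolysis genes were higher at 18 of 70 peaks (25.7%) and lower at 8 (11.4%). Hk2 was higher at 4 of 6 and the monocarboxylate transporter Slc16a1 lower at 5 of 9. Ribosomal protein genes had 1 of 26 peaks higher (3.85%) and 8 lower (30.8%), with a median of -0.23. Housekeeping genes had 3 of 66 higher (4.55%) and 10 lower (15.2%), with a median of -0.12. Over all peaks the shares were 22.7% and 17.4%. The 1 higher ribosomal peak, 30.9 kb from the Rpl30 start, lay in an intron of Matn2, and 3 of 16 ribosomal promoter peaks were lower.

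Markers of other blood cells were few in the table. Their counts stand beside shares of 22.7% higher and 17.4% lower over all peaks. Of 14 B cell genes, 8 have no peak, among them Cd79a, Ms4a1 and Pax5, and the remaining 17 peaks had 3 higher and 4 lower, with summed signal of 3260 and 3000 in naive and 2460, 2250 and 2450 in Teff. Of the myeloid and dendritic genes, Lyz2, Csf1r, Fcgr3, Cd14, Flt3, Siglech and Csf3r have no peak. Of 20 peaks of the others 8 were higher (40%) and 4 lower (20%), with sums of 7300 and 8060 in naive and 9150, 10300 and 10700 in Teff. Cebpa, a myeloid factor, had both of its peaks higher, the promoter from 117 and 134 to 572, 546 and 752 (2.29 ± 0.15, adjusted p = 1.21e-10), with a mean of 2270 in anergic cells. Zbtb46 was higher at 4 of 4 and Itgax at 1 of 3. Spi1 was lower at 2 of 4 with none higher. Itgam was lower at its only peak, from 212 and 141 to 57.5, 37.2 and 36.7 (-1.99 ± 0.44, adjusted p = 0.00101). Cebpb had 1 of 3 higher and 1 lower, and Adgre1 had none of 3 called. The erythroid and platelet list had 1 of 8 peaks higher and 1 lower, and Gata1, Hba-a1 and Hbb-bs have no peak.

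**Figure D4:**
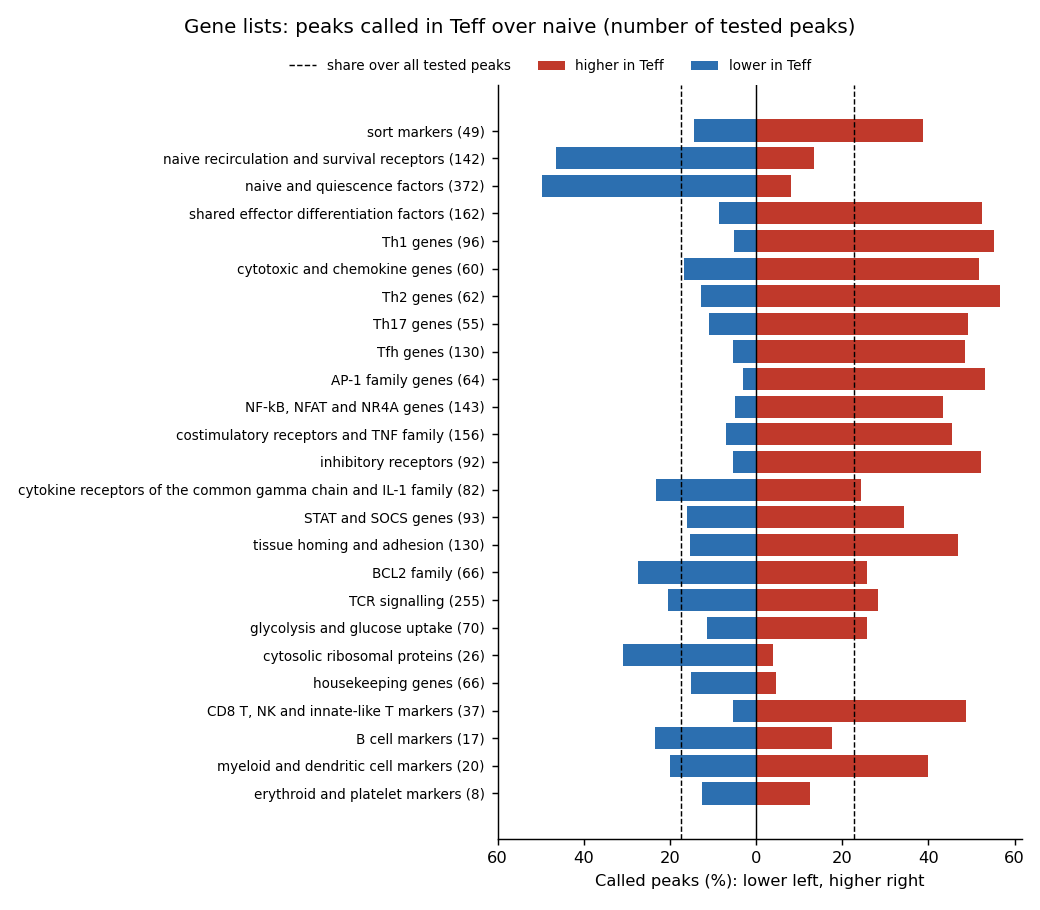
Share of each list's tested peaks that were higher (red, right) or lower (blue, left) in Teff, with the number of peaks in brackets; dashed lines mark the shares over all tested peaks, 22.7% higher and 17.4% lower. The naive and quiescence lists reach furthest left, and the Th2, Th1, AP-1, shared effector and inhibitory receptor lists furthest right.

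Some loci changed almost as a block. Over all genes, the largest numbers of higher peaks were at Atxn1 (24 of 26), Septin9 (23 of 34), Fyn (19 of 24), Rapgef1 (18 of 21), Maf (17 of 22) and Sla (17 of 24), an adaptor that lowers T cell receptor levels. Septin9 alone among these had a lower peak. Atxn1 signal summed over its peaks was 5360 and 5410 in naive and 11200, 11500 and 11300 in Teff, and its rises ranged from 0.49 to 5.19. The largest numbers of lower peaks were at Lef1, Foxp1, Bach2, Dad1 (26 of 54), Satb1 and Wwox (16 of 27, with 7 higher). The peaks given to Dad1 lie over 605 kb of chromosome 14 beside the T cell receptor alpha genes, so the nearest start site does not name them well. Of 1776 named genes with 5 or more peaks, 28 had every peak higher, among them Smco4 with 10, Fosb and Il13 with 7 and Il2rb with 5, and 14 had every peak lower, among them Actn1 with 7 and Prf1 and Foxj1 with 6. Both directions occurred at 674 of these genes.

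The largest rises at single peaks, among called peaks with a mean log2 signal of at least 5, were at sites with almost no naive reads, so their size is uncertain. A peak 19.4 kb downstream of Calca (chromosome 7, 114616727 to 114617133) had 1.62 and 0.774 in naive, taken as 3 reads in all, and 618, 505 and 317 in Teff. The ratio was 438, with a 95% counting interval of 149 to 2120. The second intronic peak of Zbtb16, 30.0 kb in, had 2 naive reads on the same count and 312, 292 and 290 in Teff, a ratio of 379 (105 to 3140). These peaks, and those near Med4 and Arl8b named below, had 3 naive reads or fewer per library, so their direction supports nothing. The intervals leave out the spread between replicates. Gas7 (4.06 and 0.774 against 411, 544 and 443), Prep (3.25 and 0.774 against 334, 326 and 313) and Ppp4r2 (3.25 and 6.19 against 774, 715 and 485) followed with log2 fold changes of 7.27, 6.89 and 6.87, which depend on the pseudocount and were 5.52 for Gas7 and 5.06 for Prep with a pseudocount of 8. Peaks near Dennd4a, Med4, Phf21a and Arl8b and the Il13 peak completed the 10 largest rises. None of the 10 lay within 1 kb of a start site, and at all 10 the anergic and Treg means lay below every Teff library.

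The largest falls, named under the same rule (mean log2 signal over the libraries of at least 5), were smaller. Below that signal level Foxp1 had a fall of -4.36. The first under the rule was in the T cell receptor alpha region (nearest start Dad1, 459 kb away), from 354 and 393 in naive to 11.1, 22.3 and 25.0 in Teff (-4.27 ± 0.39, adjusted p = 1.53e-08). An intronic peak of Zfp800 went from 1000 and 578 to 53.3, 41.3 and 68.3 (-3.81 ± 0.44, adjusted p = 3.61e-07), and one of Alg14 from 622 and 609 to 51.9, 46.2 and 56.7 (-3.56 ± 0.4, adjusted p = 2.52e-07). At the Alg14 peak no difference of Teff from anergic or Treg cells was called (adjusted p = 0.444 and 0.441). Promoters with the largest falls included those of Prss43, Endou, Gria3, Iftap and Cd8b1, with log2 fold changes of -2.65, -2.58, -2.57, -2.56 and -2.51. Among the promoters with the largest rises, Gcnt1 and Snai2 each stood at the smallest value in both naive libraries, taken as 2 reads in all. Their ratios were 94.9 (26 to 788) and 88.3 (24.2 to 734), and their direction supports nothing for the reason given above. Samd3 rose from 4.87 and 5.42 to 332, 221 and 177 (5.26 ± 0.41, adjusted p = 1.07e-09).

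Change was more frequent away from start sites. Of 12762 promoter peaks, within 1000 bases of a RefSeq start, 1573 were higher (12.3%) and 1613 lower (12.6%), while of 25664 distal peaks 7161 were higher (27.9%) and 5064 lower (19.7%). Distal peaks were more often higher than lower. The split of promoter peaks depended on the setting: 2008 were higher and 1345 lower with scaling to equal totals, 1881 and 1435 with DESeq2, and 1646 and 2240 in a fit of the 5 libraries alone. The share of lower peaks grew with each step of distance, that of higher peaks did so apart from a dip between 5 and 20 kb, and they reached 25.6% and 33.9% among the 1618 peaks beyond 100 kb, and the median size of change grew from 0.21 to 0.94 on the log2 scale. Intronic peaks were higher at 28.3% and lower at 17.0%, and peaks in 5′ UTRs at 9.46% and 13%. Peak brightness moved with this: among the brightest 9623 peaks 10.8% were higher and 15.3% lower, and among the faintest 9624 peaks 30.6% were higher and 18% lower. The lower shares of the groups of peaks between them, 16.2% and 19.9%, did not follow brightness. The part of brightness in the difference between promoters and distal peaks was not tested. Without naive replicate 1 the promoter counts were 971 higher and 672 lower and the distal count was 2971 lower, and without naive replicate 2 there were 871 lower promoters.

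**Figure D5:**
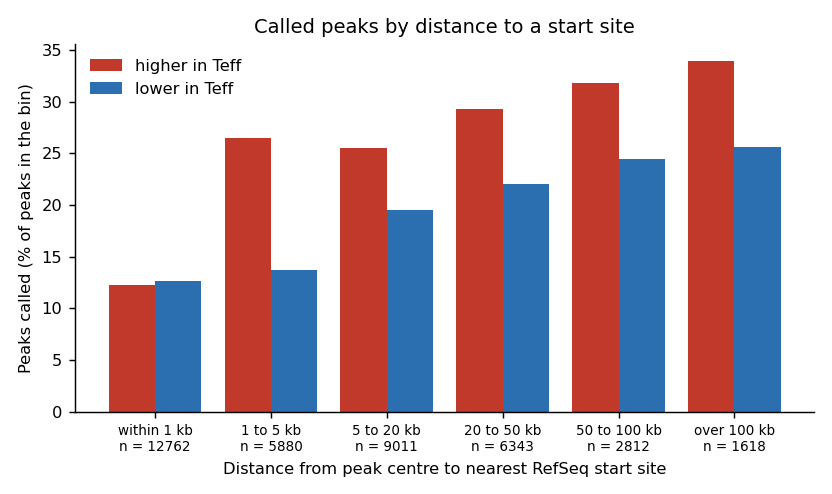
Percent of tested peaks called higher (red) or lower (blue) in Teff by distance from the peak centre to the nearest RefSeq start site, with the number of peaks in each bin. The bars are level within 1 kb (12.3% and 12.6%) and reach 33.9% and 25.6% beyond 100 kb.

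The letters bound by T cell factors were spread unevenly over distal peaks. The shares below are for both strands of the bases within 100 of each peak centre and are descriptions without a test. The AP-1 letters TGANTCA were found in 21% of higher, 7.01% of lower and 8.68% of uncalled distal peaks, and in 11.8% of all distal peaks. The T-box letters TCACACCT were in 3.02% of higher and 0.691% of lower peaks (1.53% of all), the NFAT letters TGGAAAA in 6.69% and 2.9% (4.77% of all), a 10-letter NF-kB motif in 2.64% and 0.849% (1.53% of all) and the ROR letters TAGGTCA in 3.21% and 1.13% (1.95% of all). In the other direction, the TCF and LEF letters ATCAAAG were in 4.55% of higher and 7.58% of lower peaks (4.78% of all), the ETS letters CAGGAAGT in 6.8% and 9.48% (7.5% of all) and the E protein and ZEB letters CAGGTG in 15.4% and 20.9% (18% of all). Peaks at genes of these factor families went different ways. Tbx21, Rora and Nfatc1 had more higher peaks, and Lef1 and Tcf7 more lower ones. Eomes, a T-box gene, had only lower peaks, and Ets1 had 9 higher and 7 lower. Zeb2 had 3 of 4 peaks higher and Zeb1 2 of 7 lower. A link between these genes and the letters was not tested.

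RUNX letters (TGTGGTT) differed less, with 13.7% of higher, 12.6% of lower and 10.0% of uncalled distal peaks (11.6% of all). The letters AGATAAG of GATA factors were in 3.59% of higher and 2.94% of lower peaks (2.96% of all), and the STAT letters TTCNNNGAA in 5.57% and 6.26% (5.82% of all). For the KLF letters GGGNGTGG the shares were 10.2% and 11.5% (10.6% of all). The CTCF letters, CTCF being the factor that anchors chromatin loops, were in 1.86% of higher and 8.73% of lower distal peaks against 15.7% of uncalled ones (10.5% of all). At promoter peaks AP-1 letters were in 7.06% of higher, 2.73% of lower and 3.21% of uncalled peaks (3.62% of all). Letters of different motifs can overlap, and a window without them says only that these letters are not in it.

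Teff was also set beside the other antigen-experienced groups at the same lists. These comparisons share the Teff libraries with the one above, so their counts are given side by side only. Over all peaks, Teff was higher than anergic at 16.8% and lower at 15.9% (32.8% called), and higher than Treg at 18.2% and lower at 14.4% (32.6% called). Cytotoxic and chemokine genes were higher in Teff than in anergic cells at 34 of 60 peaks and lower at 5, and higher than in Treg cells at 31 and lower at 5. Th1 genes were higher than in anergic cells at 36 of 96 peaks and lower at 22, and higher than in Treg cells at 39 and lower at 15. At the Tbx21 peak described above no difference of Teff from anergic cells was called (-0.04 ± 0.21, adjusted p = 0.926) and was above Treg (3.0 ± 0.21, adjusted p = 1.62e-09), whereas the Ifng promoter was above both (1.19 ± 0.28, adjusted p = 0.0019, and 3.86 ± 0.28, adjusted p = 2.03e-09).

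Follicular helper genes ran the other way, with Teff higher than anergic at 5 of 130 peaks and lower at 79, and higher than Treg at 16 and lower at 40. Inhibitory receptors were lower in Teff than in anergic cells at 45 of 92 peaks and higher at 12, and costimulatory genes lower at 60 of 156 and higher at 14. The innate-like list was higher in Teff than in anergic cells at 18 of 37 peaks and lower at 2, and higher than in Treg at 20 and lower at 3. For the quiescence factors, which were lower in Teff than in naive, Teff was higher than anergic at 108 of 372 peaks and lower at 49, and higher than Treg at 21 and lower at 152. At the Lef1 intronic peak the group means were 1230 ± 66.6 in naive (SD, n = 2), 481 ± 70.4 in Treg, and 220 ± 18.4 in Teff (SD, n = 3 each). Teff lay below Treg (-1.12 ± 0.17, adjusted p = 3.45e-05) and above anergic cells (1.45 ± 0.17, adjusted p = 1.08e-06) there.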

How the data were processed

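Chromatin accessibility was measured by ATAC-seq in 11 libraries. Per the labels and the series' design text, Trimmomatic 0.38.1 trimmed the reads, which were aligned to mm10 with Bowtie2 2.3.3.1 and sorted with SAMtools 1.13, peaks were called per sample with Genrich 0.5, which removed duplicates and adjusted for the transposase, and DiffBind 2.10.0 gave the 38509 consensus peaks. The authors deposited a signal value per peak and library. How it was scaled is not given in the sources used here. Dividing a library's deposited signal by its smallest value gave whole reads (within 0.01) for 100% of values, so 1 read is worth 0.692 to 1.67 units in Teff and 0.774 or 0.812 in naive. No value is 0, and 293 and 368 peaks in naive and 24 to 31 in Teff stand at 1 read. The smallest value was taken as 1 read, but it may be a floor that also stands for 0 reads. Intervals on read ratios rest on that count and cover counting error only.

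Limma 3.58.1 (R 4.3.3) was fitted to log2(signal + 1) over all 11 libraries with a mean per group. The edgeR 4.0.16 filter removed 16 peaks. Adjusted p-values are Benjamini-Hochberg over 38493 peaks, threshold 0.05. Whole reads were also tested with edgeR and DESeq2 1.42.0. The fit was tested on simulated data. Each peak was given to the nearest RefSeq start (45756 transcripts), computed here. This need not be the gene it regulates. Sequences are from the RefSeq assembly of GRCm38.

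The 25 gene lists (377 genes, 61 without a peak), the motifs and the rule for named genes were chosen with earlier results of these data known. The rule names key genes by their promoter peak and their peak of lowest adjusted p, up to 4 genes per list, the 10 largest rises and falls (called, mean log2 signal of at least 5, no overlap, no predicted gene), 6 promoters and 6 loci each way. Other list members are named to account for their list. Peaks of 1 gene are not independent. Replicate numbers were not used to pair libraries. Some results on withheld items are not reported here.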

Additional observations from a re-analysis of the deposited data

How the results depend on the processing

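None of the 153 called named peaks changed direction in any setting. Uncalled ones could, as the Batf promoter did (-0.11 to 0.24). The settings were a pseudocount of 8, no filter, scaling to equal totals, median-of-ratios scaling, edgeR, DESeq2, a fit of the 5 libraries alone, a replicate block, and leaving out each library. Leaving out 1 library gave 6905 to 8292 higher and 3645 to 5873 lower peaks, 971 to 1468 higher and 672 to 1368 lower promoter peaks, and 5930 to 6785 higher and 2971 to 4651 lower distal peaks, the lowest value of each without naive replicate 1. Without naive replicate 2 the lower promoter peaks came to 871. On whole reads edgeR called 8844 higher and 6891 lower and DESeq2 9374 and 6400. Scaling to equal totals gave 9467 higher and 5638 lower. Of 153 called named peaks, 143 kept their call in all 13 settings tried for each. The 10 that lost it in at least 1 included the promoter peaks of Gata3, Bcl2l11, Bcl2 and Izumo1r and peaks of Rpl30, Rpl5, Rpl32, Cd79b and Itga2b. Another 5, at Id2, Tcf7, Cd4, Foxp3 and Klf1, gained a call in at least 1. The cause was not tested.

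Same-numbered libraries did not stand out. The correlation of deviations from the group means was 0.14 for naive 1 with Teff 1 and 0.06 for naive 2 with Teff 2. These are not separate checks, because the deviations of 2 naive libraries mirror each other. Over all groups, same-numbered libraries ranged from -0.11 to 0.16 and differently numbered ones from -0.22 to 0.19. Such values cannot tell whether the numbers mark a shared source, since a small shared effect would also give low values. With the replicate number as a block 8811 peaks were higher and 6547 lower.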
